A study of Mus musculus with 8 samples.

Results

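MHC class II molecules carry peptides from ingested protein to CD4+ T cells, and costimulatory molecules on the same cell give the second signal that such T cells need. Chromatin accessibility was examined around 9 mouse genes of this system. They were the class II chain genes H2-Aa, H2-Ab1 and H2-Eb1, the peptide-loading gene H2-DMa, the invariant chain gene Cd74, the class II transactivator gene Ciita, and the costimulation genes Cd80, Cd86 and Cd40. Their regions were chosen by position alone, as merged ATAC-seq peaks within 10 kb of a gene body. All 9 genes were found in the annotation, and 19 of the 40784 regions of the series met the rule.

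ATAC-seq marks open chromatin by the insertion of sequencing adapters with the Tn5 transposase. The cells were BV2, an immortalised mouse microglial line, taken from 4 groups with 2 biological replicates each. BV2 cells grew alone (monoculture) or were seeded onto mouse glioma cells of the line GL261 (co-culture), and stayed for 16 h at 21% oxygen (normoxia) or below 0.1% oxygen (hypoxia). Cells were fixed with formaldehyde and sorted before the Tn5 reaction, and the labels name CD45, a leukocyte surface protein, as the marker sorted for in BV2 cells or GFP, without saying which applied to which library. BV2 is 1 line, so replicates are samples of that line and not separate animals. The design asks what low oxygen and glioma contact do to microglial chromatin. The values below describe the part of it that serves antigen presentation to T cells.

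In background terms, CIITA is the switch of the class II system. It does not bind DNA itself, but joins a complex of RFX, CREB and NF-Y factors on the X and Y boxes that class II genes and Cd74 carry just before their starts. Microglia at rest keep the system low, and interferon gamma raises it through CIITA. CD80 and CD86 on the presenting cell bind CD28 or CTLA-4 on the T cell, and CD40 receives the CD40 ligand signal back from it.

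Each library came with its own list of peaks, from 9910 to 29658 long, and the 2 lists of monoculture normoxia (13333 and 9910) were the shortest. Background coverage, estimated from the deposited fold and p-value of the peaks, ran from 0.758 fragments per position in monoculture normoxia replicate 1 to 1.45 in monoculture hypoxia replicate 1. A region without a peak is one that did not pass the caller's threshold at that depth, and it need not be closed. A percentile below is the rank of a peak by its deposited −log10 p among all peaks of its own list, with 100 as the strongest. Lists of different length give ranks that cannot be compared as amounts, so percentiles say only how prominent a site was within its library. CD45 itself is encoded by Ptprc, which had a peak in all 8 libraries. Of 10 marker genes of microglia and macrophages, 6 to 10 had a peak within 10 kb in each library.

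The 9 genes fell into 3 kinds. H2-Aa, H2-Ab1 and H2-Eb1 had no region in any library. Ciita, Cd74 and H2-DMa had regions that came and went between libraries. Cd80, Cd86 and Cd40 each had a peak in at least 7 of the 8 libraries, counted over all their regions. No single Cd86 region had a peak in more than 5 libraries. The Cd80 region called in all 8 lay inside the neighbouring gene Adprh, and that at the 5′ end of Cd80 was called in 4. Of all 21887 protein-coding genes, 30.5% had no region within 10 kb in any library, so the 3 empty class II loci among 9 genes lay close to that share. Among the 19 regions, 1 (5.26%), near Cd80, had a peak in all 8 libraries, against 17.6% of the 29807 regions within 10 kb of any protein-coding gene. A peak in a single library was found at 5 of the 19 regions (26.3%), against 23.7%. The median region near the 9 genes had a peak in 3 libraries, and the median region near any protein-coding gene in 4.

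**Figure D1:**
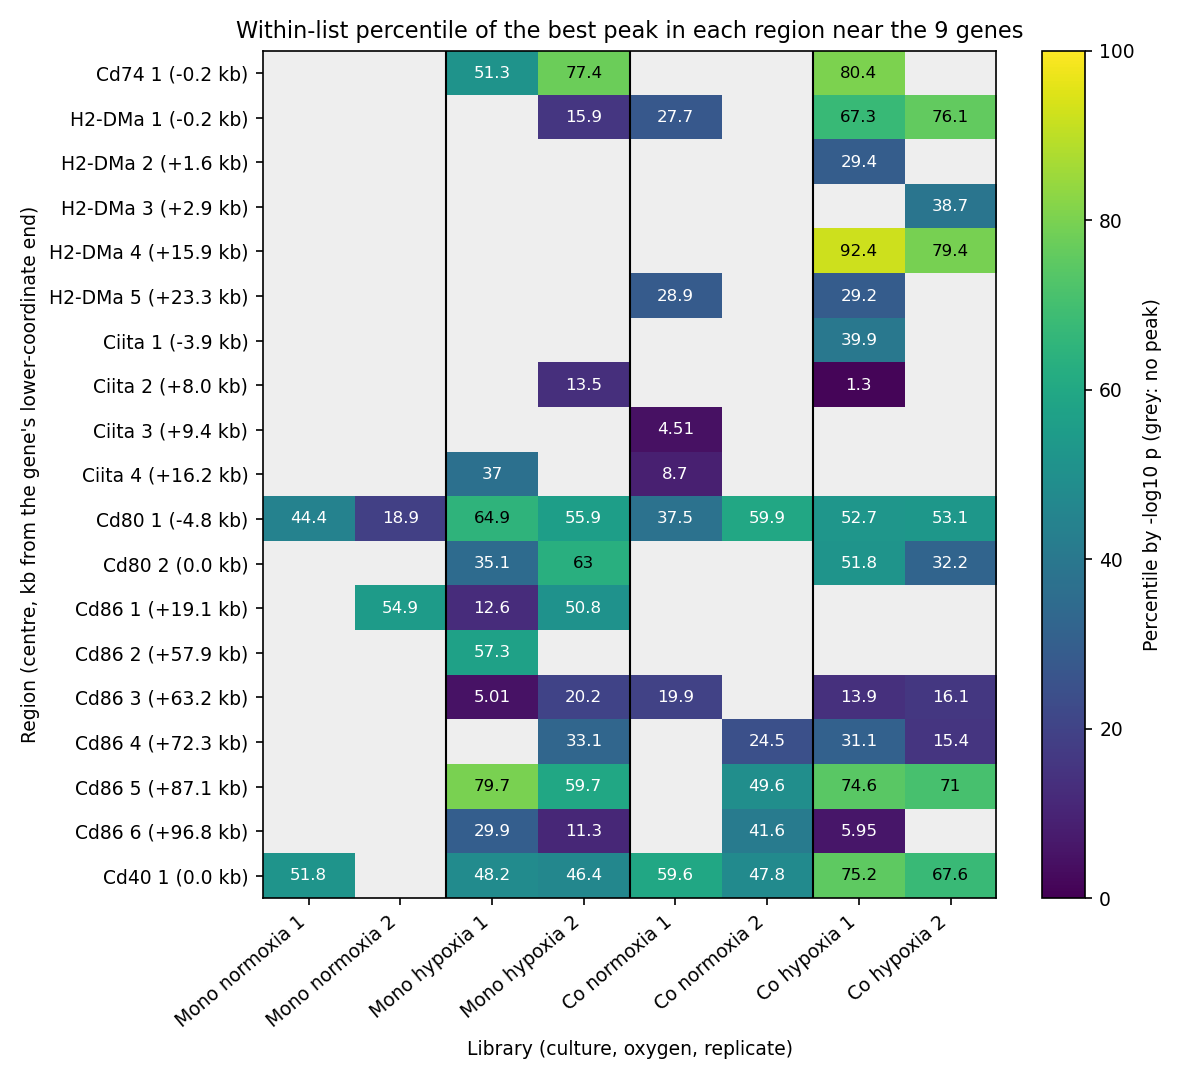
Each row is 1 of the 19 regions near the 9 genes, with the distance in kb of its centre from the lower-coordinate end of the gene, and each column is 1 library. Colour and number give the within-list percentile of the best peak by −log10 p, and grey means no peak. The first Cd80 row is filled in all 8 libraries, the second Cd80 row in the 4 hypoxic libraries, and H2-DMa 4 in the 2 libraries of hypoxic co-culture.

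The classical class II genes lie on chromosome 17 (GRCm38). H2-Ab1 encodes the beta chain of I-A and spans 34263227 to 34269418, and H2-Aa encodes its alpha chain and spans 34282744 to 34287823. H2-Eb1 encodes the beta chain of I-E and spans 34305867 to 34316674. The nearest region in any library lay 52332 bp from H2-Ab1, near Psmb8 and Tap2, and had a peak in 1 library. From H2-Aa the nearest lay 52990 bp away and from H2-Eb1 24139 bp away, near H2-Eb2 and H2-Ea, with a peak in 2 libraries. Neither hypoxia nor co-culture gave a peak at these 3 genes, so no accessibility was detectable there at this depth.

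The promoters of H2-Aa and H2-Eb1 are shown because they are the textbook targets of CIITA and were without a peak in all 8 libraries. The RefSeq table (GRCm38.p6) held 4 of the 9 genes, namely H2-Aa, H2-Eb1, H2-DMa and Cd80. Each sequence is the 250 bp before the listed start, read 5′ to 3′ on the gene's strand. H2-Aa lies on the minus strand (chr17:34287824-34288073), H2-Eb1 on the plus strand (chr17:34305617-34305866) and the first of 2 listed H2-DMa starts on the plus strand (chr17:34122582-34122831). Capitals mark matches, on either strand, to CCAAT (the core of the Y box, ATTGG on the other strand), CTAGNNAC (part of an RFX-type X box) and TGACGTCA (a CREB-type site).
H2-Aa: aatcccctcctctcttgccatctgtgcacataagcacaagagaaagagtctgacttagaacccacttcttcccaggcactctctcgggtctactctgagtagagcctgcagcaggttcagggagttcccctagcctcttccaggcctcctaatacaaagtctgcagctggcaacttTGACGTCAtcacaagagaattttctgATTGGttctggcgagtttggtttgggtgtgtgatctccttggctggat
H2-Eb1: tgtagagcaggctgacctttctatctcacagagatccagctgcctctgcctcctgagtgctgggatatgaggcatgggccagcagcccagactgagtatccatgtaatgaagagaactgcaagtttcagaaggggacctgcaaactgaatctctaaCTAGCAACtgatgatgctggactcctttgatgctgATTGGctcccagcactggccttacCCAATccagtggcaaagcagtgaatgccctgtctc
H2-DMa: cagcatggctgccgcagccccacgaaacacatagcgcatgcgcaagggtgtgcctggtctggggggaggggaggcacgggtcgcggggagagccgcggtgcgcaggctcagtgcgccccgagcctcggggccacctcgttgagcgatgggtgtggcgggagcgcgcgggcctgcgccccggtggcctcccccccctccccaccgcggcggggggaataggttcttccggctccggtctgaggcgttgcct

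The H2-Aa window held 1 CCAAT and 1 TGACGTCA, and the H2-Eb1 window held 2 CCAAT and 1 CTAGNNAC. The H2-DMa window shown held no match, and the window of its second listed start held 1 CCAAT. Over 21238 windows of the same length before protein-coding starts, 35.4% held CCAAT, 9.16% CTAGNNAC and 1.93% TGACGTCA. The motifs were chosen with the sequences shown in view, so their matches are no test against these shares. Of 4 other motifs searched on both strands, none matched in these windows or in that of Cd80. Those motifs were ACGTG (17.8% of all windows) and GCGTG (33.8%), the cores of hypoxia response elements, TTCNNNGAA (6.57%), a STAT-type site, and GAGGAAG (10.3%), a PU.1-type site. These are matches of letters within 250 bp and not measured binding. Extended to 50 bp past the start, 46.0% of all such promoters overlapped a region. Of the 5 promoters listed for the 4 genes, the first H2-DMa promoter did, in co-culture hypoxia replicate 2 only.

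H2-DMa encodes the alpha chain of H2-DM, which removes the invariant chain fragment from class II molecules and helps load peptide. Of the 9 genes it had the largest difference in mean peak number between cultures, which did not pass the test. A region inside the gene (chromosome 17, 34135318 to 34135777) had a peak in co-culture hypoxia replicate 1 at percentile 92.4, with an estimated 72 fragments at its summit. In co-culture hypoxia replicate 2 the peak stood at percentile 79.4, with 45 fragments. None of the other 6 libraries had a peak there. These were the highest and the fourth highest percentiles of any peak near the 9 genes, and the region stayed in the list when each library was cut to its 9910 strongest peaks.

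H2-DMa had 4 other regions. One at the lower-coordinate end of the gene, where it overlaps the neighbouring chromatin regulator gene Brd2 (34119167 to 34119850), had peaks at percentiles 67.3 and 76.1 in the hypoxic co-cultures. It ranked at 15.9 in monoculture hypoxia replicate 2 and at 27.7 in co-culture normoxia replicate 1. Its summits in the 4 libraries lay within 1 bp of each other. Regions at 34121126 to 34121478 and at 34122348 to 34122803, also inside Brd2, each had a peak in 1 hypoxic co-culture library, at 29.4 and 38.7. A peak there cannot be assigned to Brd2 or to H2-DMa. The fifth region lay at the neighbouring H2-DMb2 gene (34142664 to 34143343) and had peaks at 28.9 and 29.2 in replicate 1 of both co-culture groups.

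The normoxic monocultures had 0 and 0 peaks within 10 kb of H2-DMa, the hypoxic ones 0 and 1. The normoxic co-cultures had 2 and 0, and the hypoxic ones 4 and 3. The hypoxic co-cultures were above every other library. The mean was 2.25 peaks in co-culture and 0.25 in monoculture (two-sided exact permutation test within oxygen level, p = 0.167, adjusted p = 0.894 over 15213 genes). Markers of glial and glioma cells were counted in the same libraries, which had a peak in 24.7% to 74.1% of all gene-near regions. Of 8 such genes, 0 and 0 had a peak in the normoxic monocultures and 1 and 2 in the hypoxic ones. The numbers were 4 and 2 in the normoxic co-cultures and 7 and 5 in the hypoxic ones, so the cultures met at 2. Olig2 had none in any library, Sox2 and Nes had peaks in 3 co-culture libraries and in no monoculture, and S100b had peaks in the 4 hypoxic libraries. The part of glioma cells in the H2-DMa peaks was not tested.

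Ciita, on chromosome 16 from 10480014 to 10531064, had 4 regions, and no region of it had a peak in more than 2 libraries. A region 3513 bp below the gene (10475817 to 10476501) had a peak in co-culture hypoxia replicate 1 at percentile 39.9. A region inside the gene at 10487822 to 10488187 ranked at 13.5 in monoculture hypoxia replicate 2 and at 1.3 in co-culture hypoxia replicate 1. Another at 10489239 to 10489584 ranked at 4.51 in co-culture normoxia replicate 1. The last, at 10495931 to 10496431, ranked at 37.0 in monoculture hypoxia replicate 1 and at 8.7 in co-culture normoxia replicate 1. The summits of these 6 peaks held an estimated 10 to 22 fragments, and none was among the 9910 strongest of its list. In no group did both replicates have a peak in the same Ciita region. The monoculture normoxia lists, co-culture normoxia replicate 2 and co-culture hypoxia replicate 2 had none.

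Cd74 encodes the invariant chain, the chaperone that fills the groove of new class II molecules until H2-DM removes its fragment. Its single region covered the lower-coordinate end of the gene (chromosome 18, 60803408 to 60803860) and had peaks in 3 libraries, all hypoxic. Percentiles were 51.3 and 77.4 in monoculture hypoxia and 80.4 in co-culture hypoxia replicate 1, with 40, 60 and 69 fragments at the summits. Co-culture hypoxia replicate 2 and the 4 normoxic libraries had no peak. The estimated local background under these peaks was 7.05 to 8.73 fragments, against 1.41 to 1.45 for the same libraries as a whole. Cd74 had a mean of 0.75 peaks in hypoxia and 0 in normoxia (two-sided exact permutation test within culture, p = 0.167, adjusted p = 0.784).

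Cd80 and Cd86 encode the B7 ligands of CD28 and CTLA-4. Cd80 lies on the plus strand of chromosome 16 from 38457430 to 38495958, and its 2 regions differed in kind. The first lay 4215 bp before the gene, inside the neighbouring gene Adprh (38452025 to 38453215), and had a peak in every library. Its percentiles were 44.4 and 18.9 in the normoxic monocultures and 64.9 and 55.9 in the hypoxic ones. In co-culture they were 37.5 and 59.9 in normoxia and 52.7 and 53.1 in hypoxia.

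The second Cd80 region covered the annotated 5′ end of the gene (38457020 to 38457788), and its centre lay at −1529 bp from the start listed in the promoter table. It was called in each of the 4 hypoxic libraries, and no normoxic library had it. The deposited peak names carry a code of unstated meaning that has 1 value in all normoxic and another in all hypoxic lists, so whatever it stands for cannot be told apart from oxygen. Percentiles were 35.1 and 63.0 in monoculture hypoxia and 51.8 and 32.2 in co-culture hypoxia. The summits held an estimated 31, 43, 40 and 29 fragments in the same order, over a local background of 5.39 to 6.05, and lay within 62 bp of each other. Of all regions near protein-coding genes, 1.93% had this separation of 4 hypoxic from 4 normoxic libraries, and 0.0235% had the reverse. In lists of 9910 peaks each, those shares were 0.5% and 0.493%, and the second Cd80 region was present in monoculture hypoxia replicate 2 alone, so its separation by oxygen was lost. Background coverage was 0.758 to 1.38 fragments per position in the normoxic libraries and 1.17 to 1.45 in the hypoxic ones.

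Peak numbers near Cd80 were 1 in each normoxic library and 2 in each hypoxic library (two-sided exact permutation test within culture, p = 0.0556, adjusted p = 0.784). That p is the smallest that the 36 relabellings allow, so no gene could pass 0.05 in this design. Of the 15213 genes with a region, 5.83% reached it with more peaks in hypoxia, and Cd80 was the 1 member of the 9 genes that did. None of the 9 reached it for co-culture, against 5.57% of genes with more peaks in co-culture. A stricter −log10 q of at least 5 could not alter the separation by oxygen of the second Cd80 region. Its hypoxic peaks had −log10 q from 10.23 to 20.60, and the normoxic libraries had no peak there.

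Cd86, on chromosome 16 from 36568956 to 36666158, had 6 regions, all inside the gene. The normoxic monocultures had 0 and 1 peaks and the hypoxic ones 5 and 5. The normoxic co-cultures had 1 and 3, and the hypoxic ones 4 and 3. The monocultures were apart by oxygen, and the co-cultures met at 3. With lists cut to 9910 peaks each, the monocultures were not apart, with 0 and 1 in normoxia and 1 and 0 in hypoxia, and the co-cultures had 0 and 0 in normoxia and 1 and 1 in hypoxia. The mean was 4.25 peaks in hypoxia and 1.25 in normoxia (two-sided exact permutation test within culture, p = 0.111, adjusted p = 0.784).

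The strongest Cd86 region (36655778 to 36656420) lay about 10 kb inside the higher-coordinate end. It ranked at 79.7 and 59.7 in monoculture hypoxia, at 74.6 and 71.0 in co-culture hypoxia, and at 49.6 in co-culture normoxia replicate 2. The other 3 normoxic libraries had no peak there. The 4 hypoxic peaks had 29 to 41 fragments at the summit and the normoxic one 21. A region 429 bp inside the same end (36665303 to 36666155) ranked at 29.9 and 11.3 in monoculture hypoxia, 41.6 in co-culture normoxia replicate 2 and 5.95 in co-culture hypoxia replicate 1.

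Of the regions in the middle of Cd86, those called in several libraries ranked low. One at 36631678 to 36632695 was called in the 4 hypoxic libraries and co-culture normoxia replicate 1, at percentiles from 5.01 to 20.2. Its excess of hypoxic over normoxic libraries was 3, and became 2 at a −log10 q of at least 5 and 0 in lists of 9910 peaks each. One at 36641073 to 36641525 had a peak in monoculture hypoxia replicate 2, co-culture normoxia replicate 2 and both hypoxic co-cultures, from 15.4 to 33.1. One at 36626645 to 36627084 was seen in monoculture hypoxia replicate 1 alone, at 57.3. While the mean peak number of Cd86 was 2.75 in both cultures, its sixth region differed by culture. It lay near the lower-coordinate end (36587596 to 36588605) and had peaks in 3 monoculture libraries, at 54.9 in normoxia replicate 2 and at 12.6 and 50.8 in hypoxia, and in no co-culture library. This exact presence pattern was shared by 24 of all 40784 regions. Other uneven patterns near the 9 genes were rare too, such as those of the last Ciita region (100) and the first H2-DMa region (120). The loss with co-culture in hypoxia that it meets held for 3.53% of all gene-near regions.

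**Figure D2:**
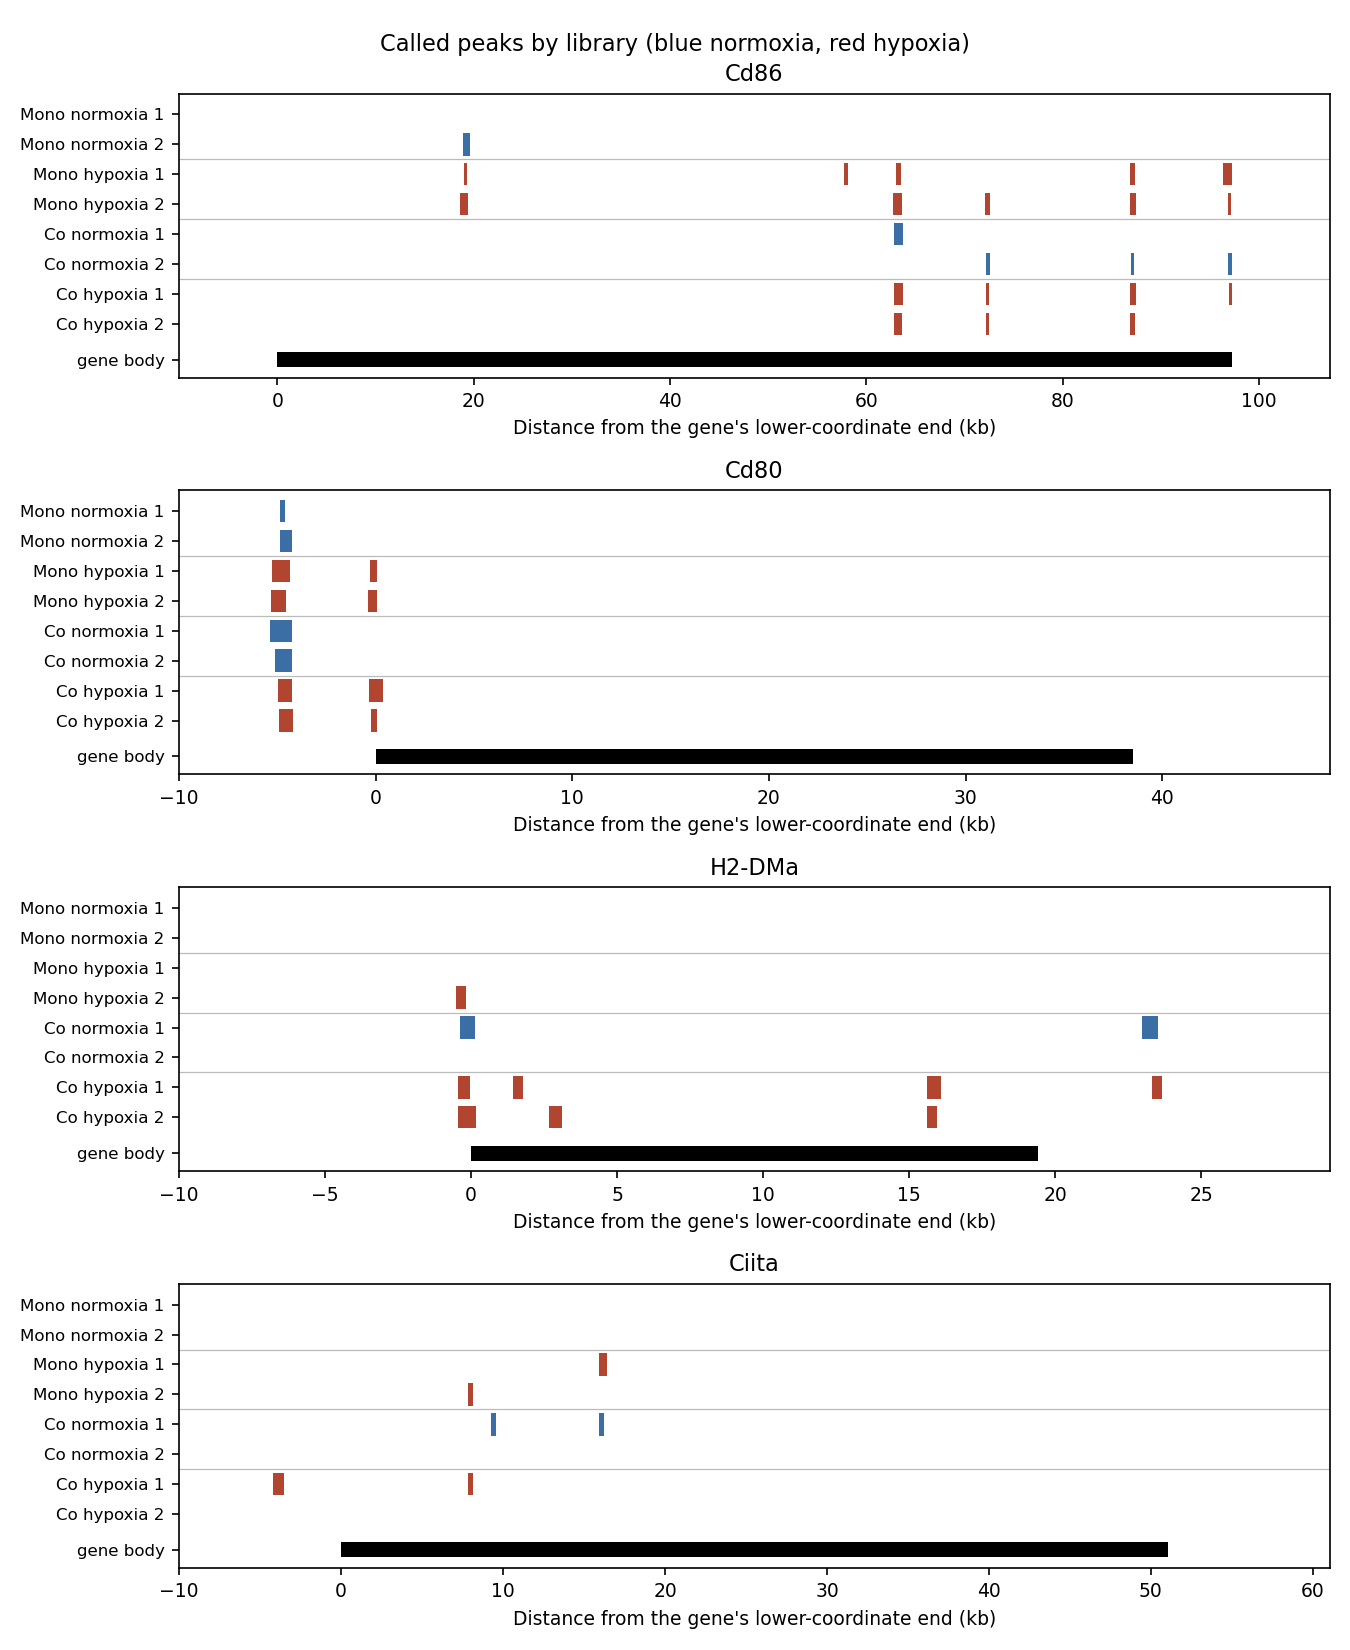
Called peaks of each library near Cd86, Cd80, H2-DMa and Ciita, drawn by distance in kb from the lower-coordinate end of the gene (black bar), with normoxia in blue and hypoxia in red. The second Cd80 position holds 4 red and no blue peaks, the lowest Cd86 position is empty in all 4 co-cultures, and the H2-DMa position near 15.9 kb is filled in the 2 hypoxic co-cultures alone.

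Cd40, the receptor through which T cells signal back to the presenting cell, lies on chromosome 2 from 165055614 to 165071654 and had 1 region, over its lower-coordinate end (165055157 to 165056003). It had a peak in every library but monoculture normoxia replicate 2, whose list was the shortest. Percentiles were 51.8 in monoculture normoxia, 48.2 and 46.4 in monoculture hypoxia, 59.6 and 47.8 in co-culture normoxia, and 75.2 and 67.6 in co-culture hypoxia. The summits held 41 and 32 fragments in the hypoxic co-cultures and 15 to 23 in the other 5 libraries, at differing coverage. In lists of 9910 peaks each, the region was present in both hypoxic co-cultures and in replicate 1 of both normoxic groups. The mean peak number did not separate the groups (0.75 in normoxia and 1.0 in hypoxia, exact permutation p = 1.0).

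Counted over all 9 genes, the normoxic monocultures held 2 and 2 peaks (mean 2.0 ± 0.0, SD, n = 2) and the hypoxic ones 10 and 11 (10.5 ± 0.707). The normoxic co-cultures held 7 and 5 (6.0 ± 1.41) and the hypoxic ones 14 and 9 (11.5 ± 3.54). Each hypoxic library thus held more than each normoxic one. As a share of the 19 regions, the hypoxic monocultures had 52.6% and 57.9%, against 59.8% and 63.9% of all gene-near regions, and co-culture hypoxia replicate 1 had 73.7%, against 74.1%. Per 10000 peaks of the list, the values were 1.5 and 2.02, then 4.1 and 4.18, then 3.21 and 2.29, then 4.72 and 4.16, in the same order of groups. The hypoxic values, from 4.1 up, stayed above the normoxic ones, up to 3.21. In lists of 9910 peaks each that separation was lost in monoculture, where 2 of the 19 regions had a peak in each of the 4 libraries. The normoxic co-cultures then had 1 and 1, and the hypoxic ones 5 and 4. As a sum over chosen genes this carries no test.

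Co-culture normoxia had lists of 21790 and 21826 peaks, with a peak in 55.5% and 54.8% of all regions near protein-coding genes. Co-culture hypoxia replicate 2 had 21633 peaks and 55.1% of those regions. It had a peak in 9 of the 19 regions near the 9 genes, against 7 and 5 in the normoxic lists. Monoculture normoxia had 33.2% and 24.7% of all gene-near regions and 2 of the 19 in each replicate. Within their lists, the peaks near the 9 genes ranked low to middling, with medians from 27.7 to 53.1 against 50.5 to 53.7 for all gene-near peaks.

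**Figure D3:**
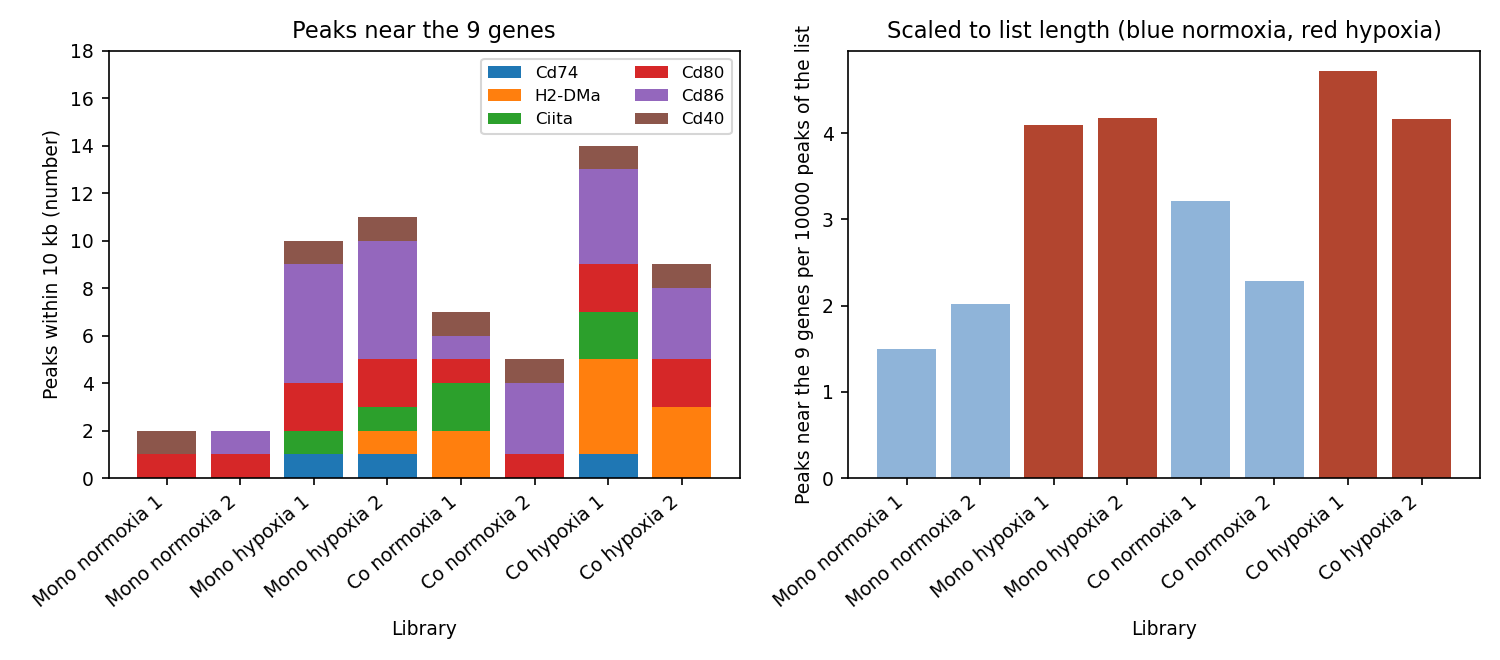
Left, number of peaks within 10 kb of each gene by library, stacked by gene (H2-Aa, H2-Ab1 and H2-Eb1 had none). Right, the same total per 10000 peaks of the list, with normoxia in blue and hypoxia in red. The totals run from 2 to 14, and the 4 hypoxic libraries, from 4.1 to 4.72 per 10000, stand above the 4 normoxic ones.

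Gained means here that a region was called in both replicates of the group named and in neither replicate of its comparison group, and lost means the reverse. With 2 libraries against 2 an exact test cannot give a p below 0.333, so these counts carry no test, and contrasts that share a group share its libraries. With hypoxia in monoculture, 5 of the 19 regions were gained, namely that of Cd74, the 5′ region of Cd80 and 3 regions of Cd86. Among all gene-near regions 17.6% were gained. None was lost, against 0.178%. In lists of 9910 peaks each, 3.48% of all gene-near regions were gained and 2.72% lost. With hypoxia in co-culture, 2 were gained, the 5′ region of Cd80 and the internal region of H2-DMa, against 5.99%, and none was lost, against 2.08%.

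With co-culture in normoxia, none of the 19 was gained, against 13.4% of all gene-near regions, and none was lost, against 0.144%. In equal-number lists these shares were 2.63% and 1.31%. With co-culture in hypoxia, the internal region of H2-DMa was gained, against 6.15%, and the lowest region of Cd86 was lost, against 3.53%. With 9910 peaks in each list, none of the 19 was lost in this contrast, against 3.09%, and the lowest Cd86 region had a peak in monoculture normoxia replicate 2 alone. Over all 8 libraries, no region separated the 4 co-cultures from the 4 monocultures in either direction. The shares over all gene-near regions were 2.01% gained and 0.0134% lost. No difference between the 9 genes and this background was tested.

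The rule is strict, and leaving out a library loosens it. Gains with hypoxia in monoculture became 8 without monoculture hypoxia replicate 1. Gains with hypoxia in co-culture became 4 without either normoxic co-culture and 6 without co-culture hypoxia replicate 2, and losses became 2 without co-culture normoxia replicate 2. Gains with co-culture in normoxia became 1 without monoculture normoxia replicate 1, 3 without co-culture normoxia replicate 1 and 5 without replicate 2, with 1 loss without monoculture normoxia replicate 1. With co-culture in hypoxia, gains became 3 without monoculture hypoxia replicate 2, 2 without co-culture hypoxia replicate 1 and 4 without replicate 2, and losses became 3 without monoculture hypoxia replicate 2 or co-culture hypoxia replicate 1. In lists of 9910 peaks each, none of the 19 regions was gained with hypoxia in monoculture, against 3.48%. The gains in hypoxic co-culture then numbered 3 against normoxic co-culture (2 regions of H2-DMa and 1 of Cd86), where all gene-near regions gave 2.92%. Against hypoxic monoculture they also numbered 3 (2 of H2-DMa and that of Cd40), where all gene-near regions gave 4.41%.

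**Figure D4:**
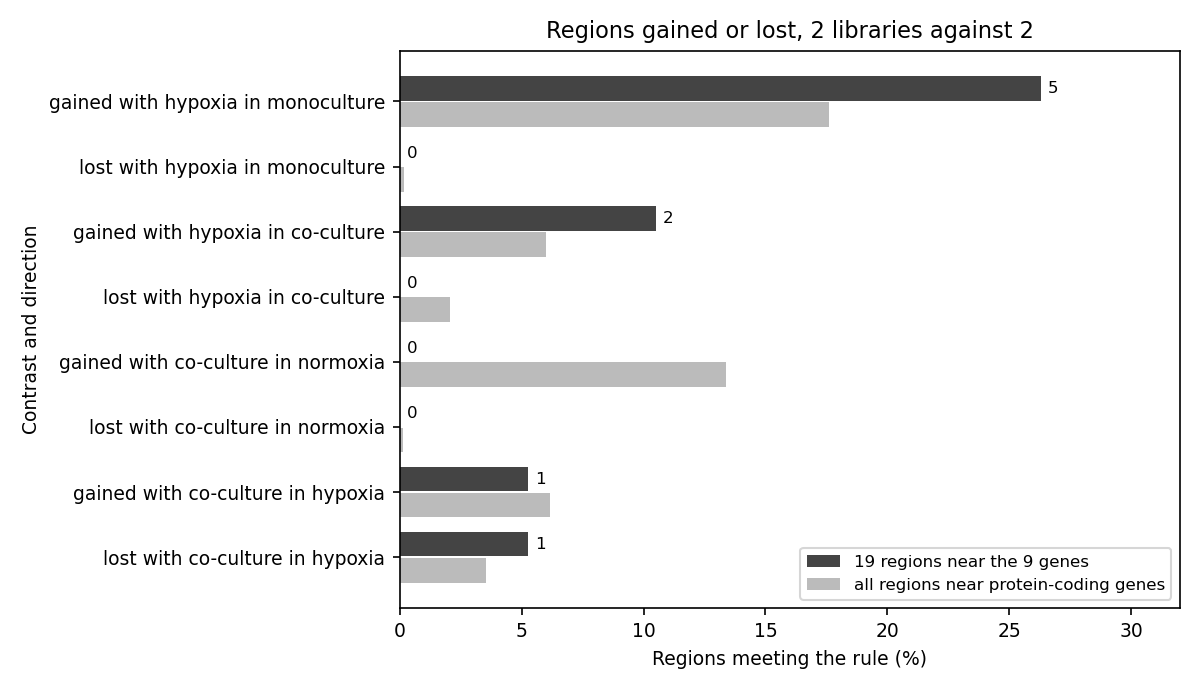
Share of regions gained or lost in each contrast of 2 libraries against 2, for the 19 regions near the 9 genes (dark, with their number) and for all 29807 regions near protein-coding genes (light). The dark bar is longest for hypoxia in monoculture, at 5 regions, and missing for gains with co-culture in normoxia, where the light bar reaches 13.4%.

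Genes that work with the 9 were taken from 4 lists, whose counts stand against 17.6% of all gene-near regions gained with hypoxia in monoculture and 13.4% with co-culture in normoxia. Of the 12 other class II chain, loading and processing genes, 11 had a region, H2-Ob being the exception, and of their 30 regions 4 were gained with hypoxia in monoculture and 7 with co-culture in normoxia. Of the same regions, 3 were lost with hypoxia in co-culture, against 2.08% of all gene-near regions, and 3 with co-culture in hypoxia, against 3.53%. The 1 region gained in each of these contrasts is the internal region of H2-DMa, which also lies within 10 kb of H2-DMb2. The highest ranked were Ifi30, the lysosomal thiol reductase, with a peak in 8 libraries and a median percentile of 93.0 (a library without a peak counted as 0), and Lgmn, the protease legumain, with a peak in 7 and a median of 92.8. H2-DMb1, a gene for the beta partner of the H2-DMa chain, had 1 region, the same one at H2-DMb2 that is given above as the fifth of H2-DMa. All 15 regulators of class II and CIITA had a region, 10 of them one called in all 8 libraries, and of their 45 regions 6 were gained with hypoxia in monoculture and 4 with co-culture in normoxia. Rfxank, a subunit gene of the RFX complex, had a region within 10 kb (chromosome 8, 70129379 to 70130550) with a peak in the 4 co-cultures alone, at percentiles from 4.64 to 19.4. Of all gene-near regions 2.01% had that separation, and in lists of 9910 peaks each the Rfxank region had a peak in 0 libraries. In each library 10 to 15 of the 15 regulators had a peak, and the share of all genes by library was not counted. Of all protein-coding genes, 30.5% had no region in any library. Of the 45 regulator regions 14 had a peak in all 8 libraries, against 17.6% of all gene-near regions, which was not tested.

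Of 14 other T cell ligands and adhesion genes, 13 were matched and 11 had a region, with 6 of 38 regions gained with hypoxia in monoculture and 6 with co-culture in normoxia. The highest ranked were Tnfsf9, the 4-1BB ligand gene, with a peak in 8 libraries and a median percentile of 78.6, and Lgals9, the galectin-9 gene, with a peak in 7 and a median of 70.2. All 10 CD40 signalling genes had a region, and of 31 regions 10 were gained with hypoxia in monoculture and 5 with co-culture in normoxia. With co-culture in hypoxia 3 were gained and 3 lost, against 6.15% and 3.53% of all gene-near regions. With hypoxia in co-culture 2 were gained and 2 lost, against 5.99% and 2.08%. Of these genes, Traf5, an adaptor of CD40, had a region (chromosome 1, 192061580 to 192062118) with the presence pattern of the 5′ region of Cd80, in the 4 hypoxic libraries alone, at percentiles from 53.0 to 87.8, and in 3 libraries when each list held 9910 peaks. It was the 1 pathway gene with that pattern, which 849 of all regions shared. Other patterns of the 9 genes recurred too, that of Cd40 among them, and not all are listed. Regions of Traf1, Ifngr2, Tnfsf9 and Tnfsf14 had that of Cd74, which 2.37% of all regions shared. A region of Traf2 had that of the internal H2-DMa region (1.98% of all regions). Regions of Irf8, Cd276 and Vsir had that of the strongest Cd86 region (1.04%). Whether such matches exceed these shares was not tested.

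Markers of other antigen-presenting cells were looked at in the same way. Of 4 dendritic cell genes, 3 (Flt3, Zbtb46 and Xcr1) had a peak in all 8 libraries and Batf3 in 7. Of the 17 regions near these 4 genes, 5 had a peak in all 8 libraries, against 17.6% of all gene-near regions. Of B cell genes, Cd79a had a peak in 7 libraries, Pax5 in the 4 co-culture libraries (0 in lists of 9910 peaks each), and Ms4a1 in 4 libraries, of which 3 were co-cultures. Of the microglial set, Ptprc had 2 regions with a peak in the 4 hypoxic libraries alone, the pattern of the 5′ region of Cd80. A region within 10 kb of Cd79a, inside the gene Arhgef1, also had it. The Ptprc regions had a peak in 0 and 4 libraries in lists of 9910 peaks each, and that near Cd79a in 2.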

How the data were processed

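ATAC-seq peak lists of 8 BV2 libraries were analysed. Each library has its own peak list, with no pooling of replicates. The submitters' processing notes name build mm10, Trimmomatic 0.36, HISAT2 2.1.0, Picard, SAMtools, deepTools and MACS2 2.1.1.2, without roles, and whether reads were shifted for Tn5 is not given in the sources used here. The authors deposited for each peak a summit, a score, a fold enrichment over background, and the −log10 of its p and q values. These are each list's own values. They ranked and filtered peaks within a list and gave the fragment estimates described below, which depend on each library's coverage and were not tested between libraries.

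Peaks overlapping by 1 bp or more were merged into regions, and regions within 10 kb of gene bodies (RefSeq, GRCm38.p6) were assigned to every such gene. Presence rules are given with the results. Peak numbers per gene were tested over all protein-coding genes with two-sided exact permutation tests within the other factor (36 relabellings) and Benjamini-Hochberg adjustment. Summit fragments n and background b were solved from the deposited fold, taken as (n + 1)/(b + 1), and the Poisson −log10 p; at least 99.9% of each list's peaks fitted within 0.001. No read totals were used. All 9 genes were named. Of each pathway list, genes with a region separating 4 from 4 libraries were named, else the 2 highest by median percentile. Some genes sharing a presence pattern were added. The genes, lists and motifs were chosen with earlier results of these data known, and the motifs with the promoter sequences in view. Alternatives covered list length (9910 strongest peaks), −log10 q of at least 5, and windows of 0 and 2 kb. Others used summit windows of 250 bp on each side or a replicate block. Peaks under 100 bp, peaks over 10 kb and single libraries were also left out in turn. The statistics were tested on simulated data. Computation used pandas 2.3.3 and scipy 1.17.1 with numpy 2.4.6 in Python 3.11.15, and plots used matplotlib 3.10.9. One marker gene is not reported here.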

Additional observations from a re-analysis of the deposited data

How the results depend on the processing

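Lists of equal number (9910 peaks each) moved most values. Gains with hypoxia in monoculture went from 5 to 0, gains with co-culture in hypoxia from 1 to 3, losses with co-culture in hypoxia from 1 to 0, and the number of genes separated by oxygen from 1 to 0. The lowest Cd86 region turned from 1 more hypoxic than normoxic library to −1. At a −log10 q of at least 5, losses with co-culture in hypoxia were 2. With narrower windows, summit windows, 100 bp of overlap or no wide peaks, no count moved by over 1.5 times. With single libraries left out, gains and losses ranged from 6 to 8 and 0 to 0 with hypoxia in monoculture, from 3 to 6 and 0 to 2 with hypoxia in co-culture, from 0 to 5 and 0 to 1 with co-culture in normoxia, and from 1 to 4 and 1 to 3 with co-culture in hypoxia. Genes separated by oxygen then numbered 1 to 2 and by culture 0 to 1. Apart from fewer peaks or libraries entering, the cause was not tested. A replicate block left 1 gene separated by oxygen and 0 by culture (smallest possible p 0.125). Deviations of equal replicate numbers correlated from −0.0202 to 0.0396 over regions. With 2 replicates in each group, this cannot show whether equal numbers were handled together. An absent peak is one that did not pass the caller's threshold, and how far depth sets which peaks are absent was not tested.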
